A study of Rattus norvegicus with 6 samples.

Results

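The Kruppel-like factors are zinc finger proteins that bind GC-rich DNA and CACCC-type sequences and switch genes on or off. The genes described here were the rows of the deposited table whose symbol was Klf2, Klf3, Klf4, Klf5, Klf6, Klf7, Klf10, Klf13 or Klf15, which gave 9 of 37991 genes. Klf9, a member of the same family, was left out of the set because it is a thyroid hormone target, and its values are given once for comparison. Each symbol matched a single row, and all 9 genes passed the filter on low counts. The RNA came from cultures of oligodendrocyte precursors of SD rats and of the cells they gave rise to, with 3 libraries after differentiation and 3 before it. Differentiated cells had been through a change of growth factors, and precursors were kept in Raff medium as the control condition. The titles number the libraries 1, 2 and 5 in each group, and place numbers 1 and 2 at day 3 for differentiated cells and day 0 for precursors. No age, sex or transgene is given, and nothing says whether replicates came from separate cultures, so every p-value rests on the spread between these libraries, which may be technical.

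Family members share a nearly identical DNA-binding end and differ in the rest of the protein, which recruits partners. Klf2, Klf4, Klf5, Klf6 and Klf7 mostly act as activators that bring in acetylases. Klf3 recruits the corepressor CtBP, Klf10 and Klf13 recruit Sin3, and Klf15 stands outside these classes. In the oligodendrocyte lineage of mice, Klf6 is required for myelination, and in cultured rat oligodendrocytes Klf13 and Klf9 have been described as partners of Sox10 and Myrf at myelin genes. Klf4, Klf6 and Klf10 are also known as early response genes of growth factors, serum or TGF beta in many cell types.

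Of the 9 transcripts, Klf4, Klf5 and Klf6 fell and Klf15 rose in differentiated cells (edgeR quasi-likelihood test on read counts, adjusted p under 0.05 over 17797 genes). The called share was 4 of 9 members, 44.4%, beside 8.86% of all tested genes. By direction, 3 members were lower beside 3.21% of all genes and 1 was higher beside 5.65%. The members were chosen with earlier results of these data known, and of 6 other tested Klf genes 0 were called. The called share thus describes these 9 genes and not the family. The median log2 fold change of the 9 members was -0.15, and that of all tested genes was -0.04. The 6 members whose groups did not overlap in scaled counts were 4 lower ones (Klf4, Klf5, Klf6 and Klf10) and 2 higher ones (Klf13 and Klf15), where 30.3% of all genes did not overlap, 13.8% on the lower and 16.5% on the higher side. The replicate numbers were taken to pair the libraries, and with the number as a block Klf10 was also lower and Klf13 also higher. That made 6 of 9 members, 66.7%, beside 30.6% of all genes called with the block (4 members lower beside 15.7%, and 2 higher beside 14.9%). Klf4 was called in each of 6 fits that left out 1 library, Klf6 and Klf15 in 2 of 6, and Klf5 in 1 of 6. Their fold changes kept their sign in all of these fits, which rest on fewer libraries. Whether a single library carried a call was not tested.

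**Figure D1:**
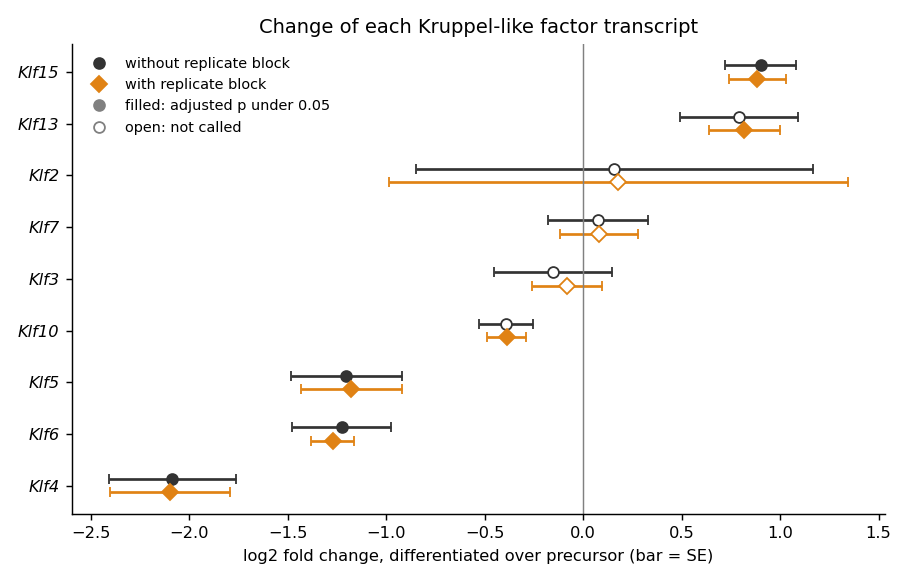
Log2 fold change of each gene, differentiated over precursor (x axis, bars are SE), by gene (rows), without and with the replicate number as a block. Filled symbols have an adjusted p under 0.05: Klf15 on the right and Klf4, Klf5 and Klf6 on the left are filled in both fits, and Klf10 and Klf13 with the block.

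The libraries held 55522101 to 79898629 counts, and levels below are CPM, counts relative to library size, after TMM scaling (trimmed mean of M values), where 1 CPM stood for 54.9 to 72.0 reads. All 12 myelin genes on a fixed list rose in differentiated cells, with Mog, a late myelin gene, up by 5.43 on the log2 scale (SE 0.15, edgeR adjusted p = 3.37e-05). Myrf, Ermn and Aspa were called in 2, 4 and 5 of 6 fits that left out 1 library, and the other listed myelin genes in all 6. Pdgfra, the receptor that marks precursors, was not called, with 365 ± 4.79 CPM in differentiated cells and 427 ± 85.6 CPM in precursors (SD, n = 3 each; edgeR adjusted p = 0.45, and 0.0348 without both replicate 1 libraries). Of the 8 genes on the precursor list 1 rose, Cnp, which is also on the myelin list, and the median log2 fold change was 0.31. With the block 5 were higher, among them Sox10 (1.14), Gpr17 (1.59), Olig2 (0.33) and Cspg4 (0.38), and 1 was lower, Ptprz1 (-0.34). Without both replicate 1 libraries 3 were higher and 1, Pdgfra, was lower. The list holds Cnp and is thus not limited to genes of precursors, so its counts do not measure how many precursors remained. As RNA was taken from whole cultures, fewer cells of a type and less RNA per cell cannot be told apart. Of all tested genes, 1005 were higher and 571 lower, so that 63.8% of calls were higher, against 40.3% with library size alone as the scaling and 32.8% by limma on log2(TPM + 1), where TPM is the level per transcript length and library total. Both replicate 1 libraries stood apart from the others, and counts or values without them are given for genes and lists whose calls they change. Beside those counts, 8.48% of all genes were called higher and 8.11% lower without both replicate 1 libraries, 7.29% higher and 5.98% lower by DESeq2, and 2.74% higher and 5.62% lower by limma on log2(TPM + 1).

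Klf6 was the most abundant of the 9 genes in every library. It encodes an activator that is induced early in many injured tissues and that is required for myelination in mice. It had 182, 106 and 98.5 CPM in differentiated 1, 2 and 5, against 353, 270.4 and 279.9 CPM in precursors 1, 2 and 5. The groups did not overlap, and replicate 1 was the highest library of each. The group means were 129 ± 46.3 CPM in differentiated cells and 301 ± 45.4 CPM in precursors (SD, n = 3 each), a 2.34-fold lower mean. Its log2 fold change was -1.23 (SE 0.25, edgeR adjusted p = 0.0265, and 0.000524 with the replicate block), and it was lower in 3 of 3 same-numbered pairs. The log2 differences within pairs 1, 2 and 5 were -0.96, -1.35 and -1.51. The threshold was missed in the fits lacking precursor 2, precursor 5, differentiated 2 or differentiated 5 (highest edgeR adjusted p 0.116, lacking differentiated 2), while without both replicate 1 libraries the log2 fold change was -1.42 (edgeR adjusted p = 0.000359).

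Klf4 had the largest fold change of the 9 genes in the counts. It encodes a factor known for reprogramming cells to pluripotency and for slowing the cell cycle in epithelia. It had 0.641, 0.945 and 0.601 CPM in differentiated 1, 2 and 5, resting on 46, 61 and 33 reads, against 3.69, 2.77 and 2.85 CPM in precursors, resting on 235, 198 and 205 reads. Every differentiated library lay below every precursor library, and the gene was low in both groups. The mean was 4.25-fold lower in differentiated cells, and the log2 fold change was -2.08 (SE 0.32, edgeR adjusted p = 0.00886). That call held in each leave-one-out fit, with an edgeR adjusted p between 0.0213 and 0.0483. By limma on log2(TPM + 1), which understates the change of low genes, the log2 difference was -0.94 for Klf4 and -1.50 for Klf6 (limma adjusted p = 0.00783 and 0.00456).

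Klf5, an activator linked to proliferation in epithelial and smooth muscle cells, was also lower. It had 1.42, 1.52 and 1.35 CPM in differentiated 1, 2 and 5, against 2.71, 2.99 and 4.17 CPM in precursors 1, 2 and 5. The groups did not overlap, and precursor 5 was the highest library. The log2 fold change was -1.20 (SE 0.28, edgeR adjusted p = 0.0414), with a 2.30-fold lower mean. Of the 6 leave-one-out fits only that without precursor 1 kept the call (edgeR adjusted p = 0.0423), and the highest adjusted p was 0.147, without differentiated 5. The table also lists a Klf5 pseudogene, Klf5-ps1, with 10, 22 and 4 reads in differentiated 1, 2 and 5 and 4, 10 and 36 reads in precursors 1, 2 and 5. Reads of these copies may have been split in counting, so the Klf5 value is uncertain to that extent; Klf5 itself had 74 to 102 reads in differentiated libraries and 173 to 300 reads in precursors.

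The windows around the start sites of Klf5 and Klf6 are shown because both transcripts fell. Their start sites also lie at the upstream edge of the gene record in RefSeq (assembly GRCr8). RefSeq windows of 300 bases, 250 before and 50 after the start, were found for 6 of the 9 genes. The start sites used for Klf3, Klf4, Klf7 and Klf15 lay 8592, 590, 111 and 363 bases inside their gene records, and their windows are not printed. Capitals mark the letters CACCC and GGGCGG on either strand (the CACCC box and the GC box, the kinds of sequence that the family binds) and the CArG box, the site type of serum response factor. The build of the deposited counts is not given in the sources used here, and these sequences were not used in any count.
Klf5, chr15:82471831-82472130, plus strand: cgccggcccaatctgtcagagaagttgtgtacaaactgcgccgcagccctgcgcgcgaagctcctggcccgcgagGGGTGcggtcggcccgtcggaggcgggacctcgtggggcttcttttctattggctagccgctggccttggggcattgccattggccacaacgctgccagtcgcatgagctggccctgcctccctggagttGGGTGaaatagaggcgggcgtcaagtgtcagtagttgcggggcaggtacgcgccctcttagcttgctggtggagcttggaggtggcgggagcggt
Klf6, chr17:69458429-69458728, minus strand: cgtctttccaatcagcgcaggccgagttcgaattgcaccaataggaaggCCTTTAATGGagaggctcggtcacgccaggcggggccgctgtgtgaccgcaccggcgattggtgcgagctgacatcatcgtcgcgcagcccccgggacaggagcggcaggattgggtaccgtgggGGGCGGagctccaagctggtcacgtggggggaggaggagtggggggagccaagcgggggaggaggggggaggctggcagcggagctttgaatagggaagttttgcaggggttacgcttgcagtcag

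The Klf5 window held 2 CACCC boxes and 0 GC boxes, and the Klf6 window held 1 GC box, 0 CACCC boxes and 1 CArG box at bases -201 to -192 from the start site. A CACCC box was found in 54.9% of 33469 rat windows of the same length, a GC box in 33.1% and a CArG box in 1.64%. The CCAAT box, searched as CCAAT on both strands, occurred 3 times in the Klf5 window and 4 times in that of Klf6, and at least once in 37.5% of all windows. The Klf6 window had 64.7% G and C and the Klf5 window 65.3%, beside a median of 51.7%. These matches describe the letters alone and do not show binding.

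**Figure D2:**
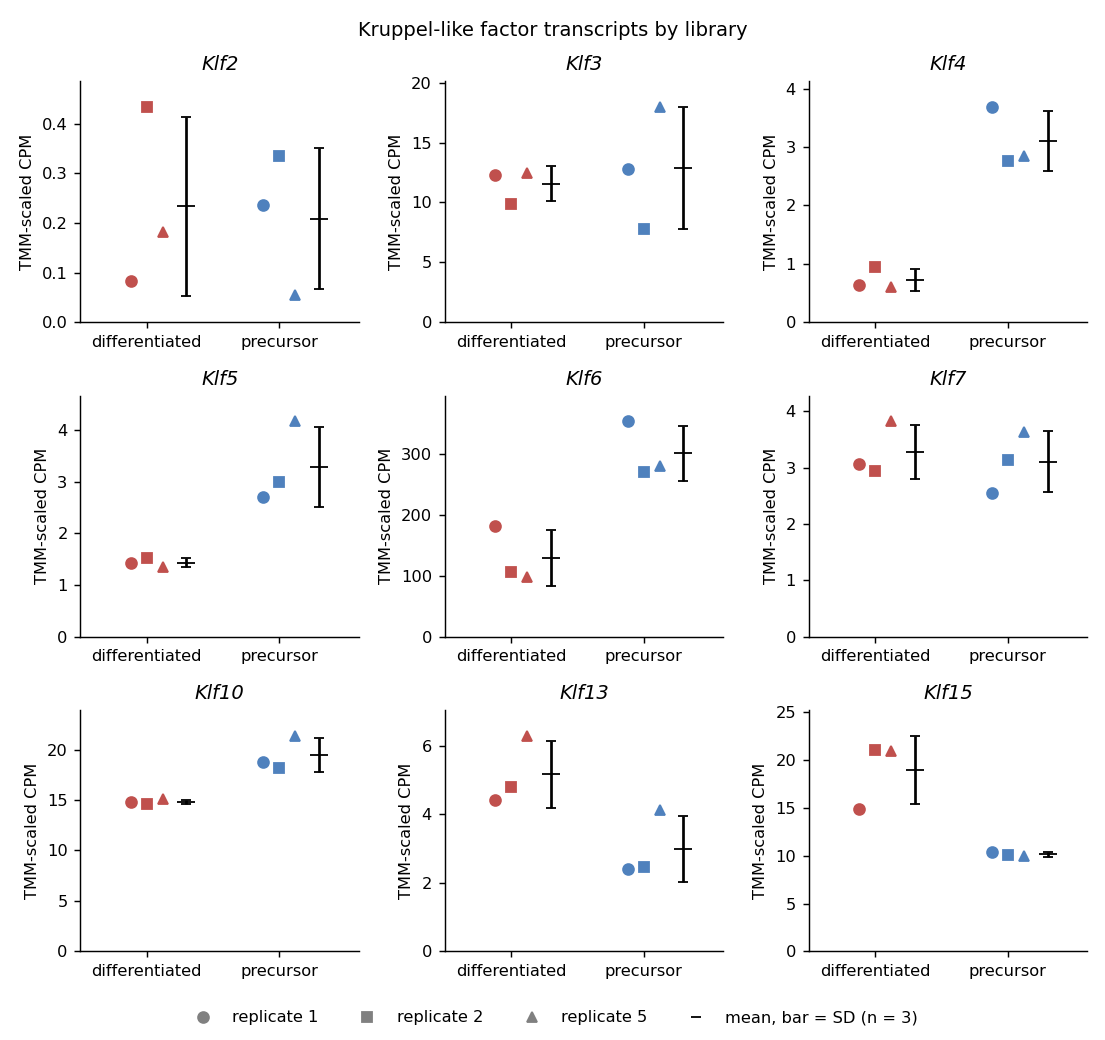
TMM-scaled CPM (y axes, each from 0) of the 9 genes in differentiated and precursor libraries, with symbols for replicate numbers and bars for the mean and SD (n = 3). The groups are apart for Klf4, Klf5, Klf6, Klf10, Klf13 and Klf15, and overlap for Klf2, Klf3 and Klf7.

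The other activators showed no call. Klf7, the closest relative of Klf6 and known for promoting axon growth in neurons, had 3.07, 2.94 and 3.82 CPM in differentiated 1, 2 and 5, against 2.56, 3.13 and 3.64 CPM in precursors 1, 2 and 5. The groups overlapped. The log2 fold change was 0.08 with a 95% interval of -0.52 to 0.67 (edgeR adjusted p = 0.902), and its sign turned with library size alone, so no direction can be given. Klf2, which keeps endothelial cells and T cells at rest, had 6, 28 and 10 reads in differentiated 1, 2 and 5, against 15, 24 and 4 reads in precursors 1, 2 and 5. Both groups spread widely, from 0.0836 to 0.434 CPM in differentiated cells and from 0.0556 to 0.335 CPM in precursors. The 95% interval of its log2 fold change, -2.20 to 2.52, was too wide to show a change of either sign (edgeR adjusted p = 0.949).

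Endothelial markers, relevant to Klf2 and Klf4 because both are strongly expressed in endothelium, were mostly low or absent, with Flt1 and Esam the highest. Flt1, a receptor for VEGF, was the most abundant, at 26.5, 12.9 and 14.0 CPM in differentiated 1, 2 and 5, against 36.0, 10.2 and 14.5 CPM in precursors 1, 2 and 5. Its groups overlapped. Esam had 4.04 to 5.25 CPM in differentiated libraries and 3.39 to 6.65 CPM in precursors. Pecam1 was at 0.398 ± 0.0629 CPM in differentiated cells and 0.414 ± 0.231 CPM in precursors (SD, n = 3 each), and Cldn5 had 0 reads in all 6 libraries. Cdh5, Tek, Kdr and Vwf were also low, with group means between 0.141 and 1.39 CPM. Of 8 endothelial markers 7 were tested and 0 passed the test with edgeR, DESeq2, limma, the block or the fit without both replicate 1 libraries, 0 had an unadjusted p under 0.05, and their summed level was 20.0 to 35.2 CPM in differentiated and 16.5 to 45.9 CPM in precursor libraries.

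Klf3, the repressor that recruits CtBP and is best known from red blood cells and fat, did not pass the test. It had 12.3, 9.90 and 12.5 CPM in differentiated 1, 2 and 5, against 12.8, 7.81 and 18.0 CPM in precursors 1, 2 and 5. The differentiated values lay within the range of the precursors, whose lowest and highest libraries were replicates 2 and 5. The log2 fold change was -0.15 (95% interval -0.85 to 0.55, edgeR adjusted p = 0.82), and 0.16 without precursor 5.

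Klf10, first described as an early gene of TGF beta, differed by a small but even amount. It had 14.8, 14.6 and 15.1 CPM in differentiated 1, 2 and 5, against 18.7, 18.2 and 21.3 CPM in precursors 1, 2 and 5. The differentiated libraries lay close together at 14.8 ± 0.235 CPM, below all precursors at 19.4 ± 1.68 CPM (SD, n = 3 each). The log2 fold change was -0.39 (SE 0.14), which missed the threshold without the block (edgeR adjusted p = 0.141) and passed it with the block (0.028). It was lower in 3 of 3 pairs.

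Klf13, described as a partner of Sox10 and Myrf, had 4.42, 4.80 and 6.28 CPM in differentiated 1, 2 and 5, against 2.4, 2.45 and 4.11 CPM in precursors 1, 2 and 5. Replicate 5 was the highest library of each group, and precursor 5 came close to differentiated 1. The means were 5.17 ± 0.983 CPM in differentiated cells and 2.99 ± 0.976 CPM in precursors (SD, n = 3 each). The log2 fold change of 0.79 (SE 0.30) missed the threshold without the block (edgeR adjusted p = 0.169) and passed with it (0.0172), with log2 differences of 0.88, 0.97 and 0.61 in pairs 1, 2 and 5.

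Klf15, a glucocorticoid-responsive regulator of amino acid and glucose metabolism in muscle and liver, was the member that rose. It had 14.9, 21.0 and 21.0 CPM in differentiated 1, 2 and 5, against 10.4, 10.1 and 9.95 CPM in precursors 1, 2 and 5. The precursor libraries were nearly equal, and differentiated 1 was the lowest of its group and still above all precursors. The mean was 1.87-fold higher in differentiated cells, and the log2 fold change was 0.90 (SE 0.18, edgeR adjusted p = 0.0242). The threshold was missed in the same fits as for Klf6 (highest edgeR adjusted p 0.116, lacking differentiated 2) and with library size alone (edgeR adjusted p = 0.0628). With that scaling the median of all genes moved to -0.19, and relative to it Klf15 was 0.95 higher on the log2 scale.

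Compared per transcript length in the deposited TPM, Klf6 stood above the other members in both groups, at 28.6 ± 6.48 TPM in differentiated cells and 81.8 ± 9.04 TPM in precursors (SD, n = 3 each). In differentiated cells the order went on with Klf13 (8.34 TPM), Klf15 (6.68), Klf10 (4.85), Klf3 (2.26), Klf7 (0.987), Klf5 (0.423), Klf4 (0.293) and Klf2 (0.209). The ranges of neighbours overlapped between Klf13, Klf15 and Klf10 and between Klf5, Klf4 and Klf2, so their places within these sets are not settled. In precursors the order after Klf6 was Klf10 (7.71 TPM), Klf13 (5.92), Klf15 (4.25), Klf3 (2.99), Klf4 (1.49), Klf5 (1.23), Klf7 (1.14) and Klf2 (0.206). There, each neighbour from Klf10 to Klf7 overlapped the next. The place of Klf13 rests on the transcript length in the authors' annotation, since it had fewer reads than Klf3, Klf10 and Klf15 in every library.

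Klf6 made up 66.3%, 50.4% and 45.9% of the summed TPM of the 9 genes in differentiated 1, 2 and 5, against 80.7%, 77.6% and 72.7% in precursors 1, 2 and 5. The lowest precursor share lay above the highest differentiated share. The summed level was 54.4, 49.5 and 54.1 TPM in differentiated 1, 2 and 5, against 101, 94.2 and 125 TPM in precursors 1, 2 and 5. The small RNA Rn7sl1 took 34.2% to 38.7% of all TPM in differentiated libraries and 24.0% to 32.8% in precursors, which moves every TPM of a library. With Rn7sl1 left out of the total, the sums were 76.8 to 88.9 TPM in differentiated libraries and 132 to 165 TPM in precursors, which still did not overlap.

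**Figure D3:**
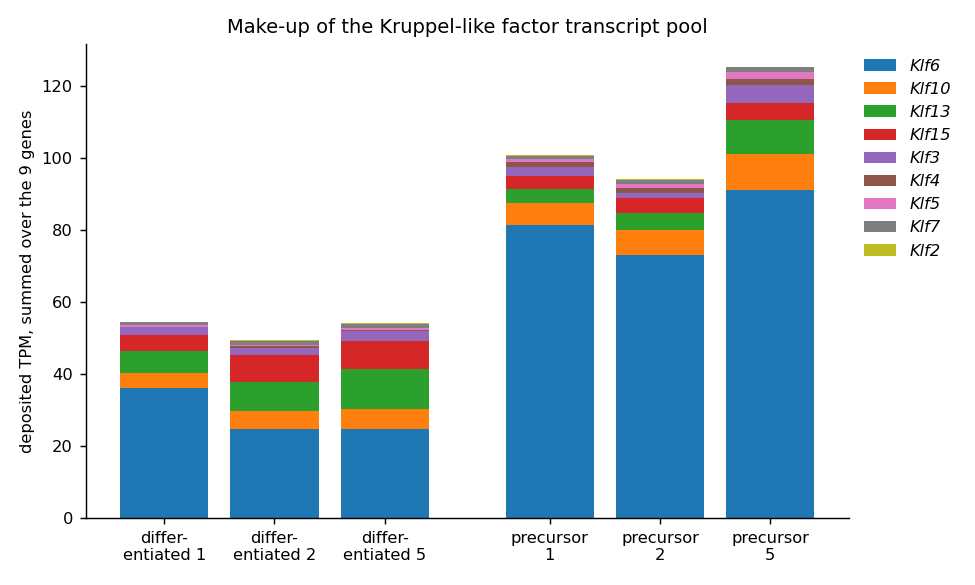
Deposited TPM of the 9 genes stacked by library (x axis, differentiated and precursor libraries by replicate number). The stacks reach 49.5 to 54.4 TPM in differentiated and 94.2 to 125 TPM in precursor libraries, and Klf6 is the largest part of each.

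The rest of the family was listed for comparison. Of 8 other Klf genes in the table, 6 were tested and 0 passed the test with edgeR, while 2 had an unadjusted p under 0.05. DESeq2, the block, RLE size factors, library size alone and the fit without both replicate 1 libraries each called 1 lower, and limma called 0. Their median log2 fold change was -0.25. Klf16, a Sin3-binding relative of Klf13, had 14.6, 13.4 and 13.5 CPM in differentiated 1, 2 and 5, against 21.3, 19.1 and 19.6 CPM in precursors 1, 2 and 5. Its log2 fold change was -0.53 (edgeR adjusted p = 0.0542, and 0.00768 with the block). Klf9 had 21.1, 10.1 and 11.5 CPM in differentiated 1, 2 and 5, against 7.53, 8.27 and 9.99 CPM in precursors 1, 2 and 5, and most of the difference lay in replicate 1 (log2 fold change 0.73, edgeR adjusted p = 0.204, and 0.24 at an adjusted p of 0.426 without both replicate 1 libraries). Klf17 had 0 reads in all 6 libraries. Of the 8 tested Sp factors, the sister family with the same type of zinc fingers, 0 passed the test with edgeR, 1 had an unadjusted p under 0.05, and DESeq2 and limma each called 1 lower. Sp3 was lower with the block (log2 fold change -0.54, edgeR adjusted p = 0.0933 without the block and 0.00344 with it, and 0.0432 without both replicate 1 libraries).

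Genes of partners and upstream pathways were taken from lists chosen by their roles. For the counts below, 5.65% of all genes were called higher and 3.21% lower without the block, and 14.9% and 15.7% with it. Of 15 corepressors and coactivators of the family, 0 passed the test with edgeR, 3 had an unadjusted p under 0.05, DESeq2 and limma each called 2 lower, and with the block 2 were higher and 2 lower. Without both replicate 1 libraries 2 were lower, Ctbp2 and Fhl3. Ctbp2, which binds Klf3, stood at -0.68 on the log2 scale (edgeR adjusted p = 0.0990, 0.00415 with the block, and 0.0218 without both replicate 1 libraries). Of 8 ubiquitin ligases linked to these factors, 1 rose: Smurf1, a ligase reported to act on Klf2 in human cells, had 107, 106 and 132 CPM in differentiated 1, 2 and 5, against 52.7, 47.8 and 61.3 CPM in precursors 1, 2 and 5 (log2 fold change 1.09, SE 0.14, edgeR adjusted p = 0.00475, and not called by limma on log2(TPM + 1)). With the block 3 of these ligases were higher and 2 lower, and without both replicate 1 libraries 2 were higher, Smurf1 and Fbxo32. In the ERK5 and MEF2 branch, which induces Klf2 and Klf4 in endothelium, 0 of 8 passed the test with edgeR, 1 had an unadjusted p under 0.05, DESeq2 called 1 higher and limma 0. Map2k5, the kinase above ERK5, missed the threshold without the block and passed with it (log2 fold change 0.68, edgeR adjusted p = 0.0706 and 0.00162, and 0.0116 without both replicate 1 libraries). With the block 1 of the 8 was also lower, Mef2c (-0.38). In the TGF beta branch 1 of 9 rose, Smad7, an inhibitor of that pathway, at 11.1 ± 1.08 CPM in differentiated cells and 3.68 ± 0.845 CPM in precursors (SD, n = 3 each; log2 fold change 1.59, edgeR adjusted p = 0.00655, and not called by limma on log2(TPM + 1)). With the block 3 genes of that branch were lower, and without both replicate 1 libraries 2, Tgfb2 and Smad3.

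Of 12 glucocorticoid response genes, the group to which Klf15 belongs in other tissues, 0 rose and 3 fell. Among all tested genes 5.65% rose and 3.21% fell. The 3 that fell were Cebpd (log2 fold change -0.91, edgeR adjusted p = 0.0300), Fkbp5 (-0.85, 0.0429) and Errfi1 (-0.76, 0.0220), which were called in 1, 1 and 2 of 6 leave-one-out fits. Without precursor 2, precursor 5, differentiated 2 or differentiated 5, 0 members of that list were called. Nr3c1, the glucocorticoid receptor, missed the threshold without the block (log2 fold change -0.23, edgeR adjusted p = 0.302) and passed it with the block (0.0400). With the block 2 of the 12 were higher and 4 lower, beside 14.9% of all genes higher and 15.7% lower. The higher ones were Sgk1, a kinase (log2 fold change 0.57 with the block, edgeR adjusted p = 0.019, and 0.275 without it), and Per1, a clock gene (0.54, 0.0326 with the block and 0.275 without it), each higher in 3 of 3 pairs. Without both replicate 1 libraries Sgk1 was higher as well (log2 fold change 0.78, edgeR adjusted p = 0.00278), beside 3 lower genes. In the edgeR fit of all 6 libraries without the block, 0 genes of the list were called on the side of Klf15.

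Of 19 tested immediate early genes, 1 fell and 0 rose, beside 3.21% and 5.65% of all genes. With the block 10 fell and 1 rose, beside 15.7% and 14.9%. DESeq2 called 6 lower and limma 3, and without both replicate 1 libraries 6 were lower and 1 higher. Their median log2 fold change was -0.52, beside -0.04 for all genes. The called gene was Btg2, an inhibitor of proliferation, at -0.79 on the log2 scale (edgeR adjusted p = 0.0482), and it was called in 0 of 6 leave-one-out fits. Fos had a log2 fold change of -0.77 and Junb of -0.82, and both missed the threshold without the block and passed with it (edgeR adjusted p = 0.0814 and 0.0998 without it, 0.0102 and 0.00401 with it, and 0.00483 and 0.00319 without both replicate 1 libraries). Jun was the gene that rose with the block, at 0.39 on the log2 scale without it. Its edgeR adjusted p was 0.0702 without the block, 0.00592 with it and 0.0405 without both replicate 1 libraries. Atf3 (-0.08), Jund (0.09) and Ier5 (-0.07) differed little and were not called with or without the block. The lower values of Klf4, Klf6 and Klf10, early response genes in other cells, stood beside these mixed changes.

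Among 20 genes known as targets of Kruppel-like factors in other tissues, 5 rose and 3 fell, beside 5.65% and 3.21% of all genes. Their median log2 fold change was 0.19. With the block 7 were higher and 6 lower, beside 14.9% and 15.7%. Without both replicate 1 libraries 6 were higher and 5 lower, beside 8.48% and 8.11%. The number higher was 3 without differentiated 1, precursor 2, differentiated 2 or differentiated 5, and the number lower was 1 without precursor 5 and 0 without precursor 2, differentiated 2 or differentiated 5. Thbd, which Klf2 and Klf4 activate in endothelium, had 1.57, 1.33 and 0.746 CPM in differentiated 1, 2 and 5, against 7.80, 4.71 and 3.93 CPM in precursors 1, 2 and 5. Its log2 fold change was -2.16 (SE 0.40, edgeR adjusted p = 0.018), called in 3 of 6 leave-one-out fits. Tagln, a contractile gene that Klf4 represses in smooth muscle, was at 269.9 ± 51.4 CPM in differentiated cells and 78.6 ± 9.5 CPM in precursors (SD, n = 3 each; log2 fold change 1.78, edgeR adjusted p = 0.00135). Cdkn1c, an inhibitor of the cell cycle, rose by 1.72 on the log2 scale (edgeR adjusted p = 0.00383). Cdkn1a, which Klf4 and Klf6 activate in other cells, was not called (log2 fold change -0.24, edgeR adjusted p = 0.252). The cyclin genes Ccnb1 and Ccne1 fell (log2 fold change -0.80 and -0.61, edgeR adjusted p = 0.0158 and 0.0237), in 2 and 1 of 6 leave-one-out fits. S1pr1 (0.43) and Nos3 (0.62) were not called (edgeR adjusted p = 0.142 and 0.654), and S1pr1 was higher with the block (0.0191). Whether any of these changes followed from a member was not tested.

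Markers of other cell types moved with the groups in part. Among all genes 5.65% were called higher and 3.21% lower without the block, and 14.9% and 15.7% with it. Of 8 astrocyte markers 3 rose (Aldh1l1, Gja1 and Aldoc), 2 without precursor 2 and 1 without precursor 5, differentiated 2 or differentiated 5. With the block 6 were higher, and without both replicate 1 libraries 4. The summed level of the list was 7461 to 7700 CPM in differentiated libraries and 4191 to 5890 CPM in precursor libraries. Most of that sum was Gfap, at 5939 ± 213 CPM in differentiated cells and 4072 ± 817 CPM in precursors (SD, n = 3 each). Gfap was not called without the block and was called with it (edgeR adjusted p = 0.0849 and 0.0138). Of 9 microglia or macrophage markers 0 passed the test with edgeR, DESeq2 or limma and 1 had an unadjusted p under 0.05, with sums of 345 to 641 CPM in differentiated and 368 to 921 CPM in precursor libraries. With the block 3 of them were lower (Itgam, Tyrobp and Cd68, edgeR adjusted p = 0.00121, 0.00664 and 0.0386) and 1 higher (C1qb, 0.0214), and without both replicate 1 libraries 1 was lower (Itgam, 0.0135). Of 7 tested fibroblast or pericyte markers 1 rose (Pdgfrb, called in 1 of 6 leave-one-out fits), with sums of 42.5 to 187 CPM in differentiated and 75.7 to 301 CPM in precursor libraries, and Rgs5 was at 0 in all. With the block 5 of the 7 were lower (Col1a1, Col1a2, Col3a1, Dcn and Lum, with log2 fold changes from -1.24 to -0.72) and 1 higher, and without both replicate 1 libraries 2 were lower (Col1a2 and Col3a1) and 1 higher. Of 8 neuron markers 1 fell (Stmn2, called in 1 of 6 leave-one-out fits), with sums of 27.3 to 35.3 CPM in differentiated and 31.0 to 58.5 CPM in precursor libraries. With the block 3 were lower, and likewise 3 without both replicate 1 libraries. The part of these cells in the values of Klf4, Klf5, Klf6 and Klf15 was not tested.

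The genes whose levels followed a called member most closely over the 6 libraries were read off from 9624 protein-coding genes of at least 10 CPM, as a description with no test. For Klf6 they were Arhgap11a (Pearson's r of 0.998), Mpp6 (0.998) and Cp (0.997), and for Klf4 they were Kitlg (0.999), Kif23 (0.997) and Zfp560 (0.996). For Klf5 they were Cdc25a (0.995), Tmx4 (0.994) and Strbp (0.992), and for Klf15 they were Cry1 (0.994), Limch1 (0.994) and Urb1 (0.994). Between the groups, Cdc25a, Tmx4 and Strbp were not called (edgeR adjusted p = 0.166, 0.0674 and 0.282). Neither were Zfp560 (0.151) and Urb1 (0.0512). The 6 points share their libraries and the difference between the groups. Each gene was picked as among the highest of 9624 correlations over 6 points, so the size of r alone shows no link.

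**Figure D4:**
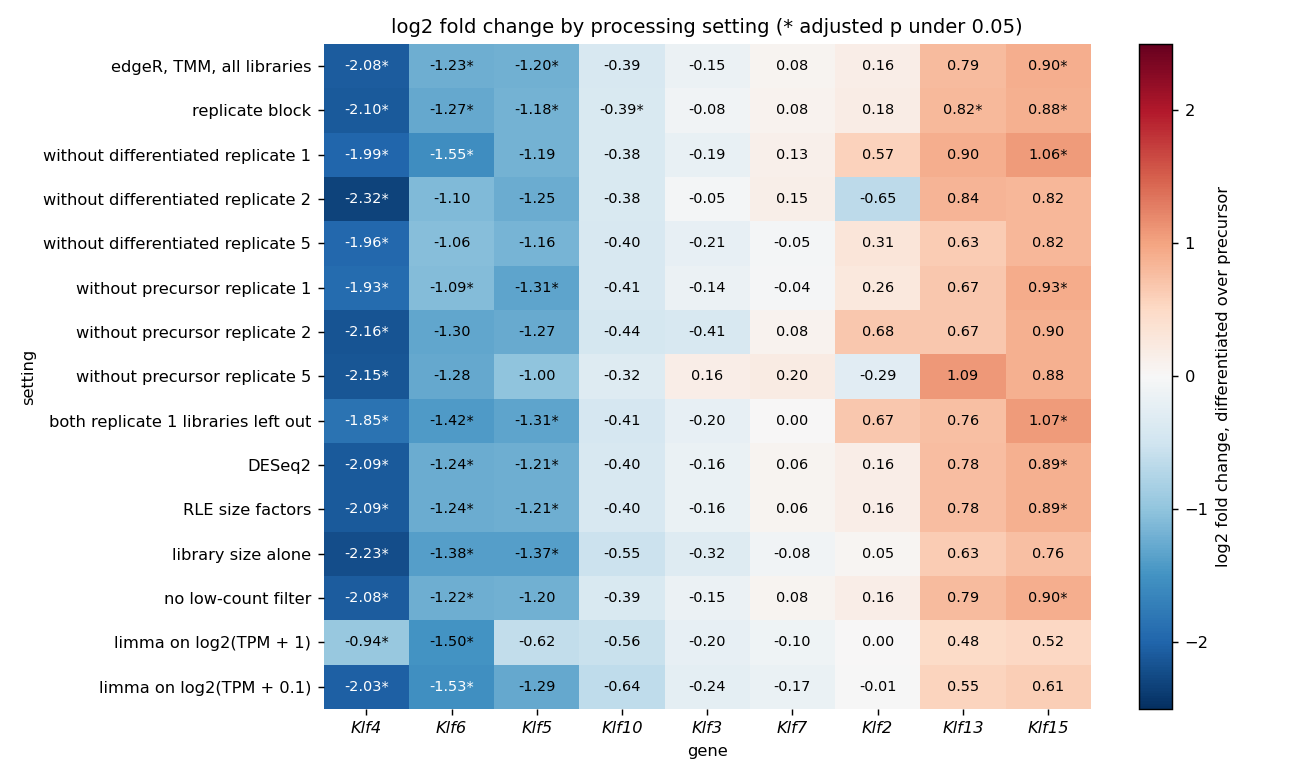
Log2 fold change, differentiated over precursor (colour and printed value), of the 9 genes (columns) under each processing setting (rows), with a star where the adjusted p was under 0.05. Klf4 has a star in every row, while Klf5, Klf6 and Klf15 lose theirs in several rows that leave out 1 library.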

How the data were processed

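Per the labels' protocols, RNA was extracted with ISOGEN and sequenced after stranded total RNA library preparation. The submitters' processing notes name StringTie 2.1.3b, HISAT2 2.1.0, Trimmomatic 0.38 and bcl2fastq 2.20.0 with the human build GRCh38, whereas the gene identifiers are rat. No source used here gives the rat build, annotation release or strand setting, so overlapping and antisense genes cannot be told apart. The authors deposited whole-number read counts that are not normalized, TPM values scaled to a fixed total per library, and FPKM values, which were not used.

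Counts were tested with edgeR 4.0.16 in R 4.3.3 (quasi-likelihood, TMM scaling, filterByExpr, robust estimation), differentiated against precursor, 3 against 3, with Benjamini-Hochberg adjustment over 17797 genes and a threshold of 0.05. The SE is the log2 fold change over the square root of F. All other adjusted p-values named edgeR, DESeq2 1.42.0 or limma 3.58.1 come from fits across all genes. The test was run on simulated counts that held no replicate effect. That run cannot show how the test behaves where same-numbered libraries deviate together. Same-numbered libraries deviated together from their group means (correlations across genes of 0.687, 0.459 and 0.634 for numbers 1, 2 and 5), so the numbers were taken to pair the libraries. The labels do not state that pairing. Alternatives were scaling, tool, filter, block, left-out libraries and limma on log2(TPM + 1) or log2(TPM + 0.1). All 9 members were described; from other lists, up to 4 called genes of largest change were named, plus upstream factors or targets that a sentence needed. The members and lists were chosen with earlier results of these data known. Promoter windows came from RefSeq, assembly GRCr8, and 29216 gene identifiers matched its table.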

Additional observations from a re-analysis of the deposited data

How the results depend on the processing

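The fall of Klf4 kept its direction and its call in every setting. With the replicate block, Klf10 (log2 fold change -0.39) and Klf13 (0.82) passed the threshold, which gave 2 higher members, with 2643 genes higher and 2797 lower; no other call among the 9 genes changed. Without a low-count filter Klf5 missed the threshold at -1.20. With library size alone Klf15 missed it at 0.76, leaving 0 higher members, Klf7 turned to -0.082, and 1006 genes were lower. DESeq2 gave 1193 lower genes. By limma on log2(TPM + 1), Klf5 (-0.62) and Klf15 (0.52) missed the threshold, 0 members were higher, Klf7 was at -0.10, and 487 genes were higher and 1000 lower. By limma on log2(TPM + 0.1), the values were -1.29 for Klf5, 0.61 for Klf15, -0.17 for Klf7 and -0.011 for Klf2, with 0 higher members and 509 genes higher and 1090 lower. Without both replicate 1 libraries 1529 genes were higher and 1462 lower. Leaving out 1 library at a time gave 0 to 1 higher and 1 to 3 lower members, 484 to 947 genes higher and 148 to 561 lower. The log2 fold changes then ran from -1.31 to -1.0 for Klf5, from -1.55 to -1.06 for Klf6, from 0.82 to 1.06 for Klf15, from -0.65 to 0.68 for Klf2, from -0.41 to 0.16 for Klf3 and from -0.049 to 0.20 for Klf7. Klf2 turned negative without differentiated 2 (-0.65) and without precursor 5 (-0.29), Klf3 positive without precursor 5 (0.16), and Klf7 negative without precursor 1 (-0.038) and without differentiated 5 (-0.049). The cause of these changes was not tested. Fewer libraries leave fewer degrees of freedom. Klf2 had 4 to 28 reads per library.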
